A study of Homo sapiens with 4 samples.

Results

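The ribosome of the cytosol is built from 4 kinds of ribosomal RNA and a set of about equally abundant proteins, most of which are encoded by a single gene each. The genes for these proteins were examined in MHCC-97H cells, an established metastatic hepatocellular carcinoma (HCC) line, given migrasomes (Migs), the vesicles that migrating cells leave behind on their retraction fibers. The genes were chosen by name and type: protein-coding genes outside chromosome Y whose symbol is RPL or RPS with a number (a closing A, X or L and a further digit allowed), RPLP0 to RPLP2, or RPSA. The rule found 84 of the 58735 genes in the tables, 32 of the small subunit and 52 of the large subunit, and used no measured value.

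The RNA-seq series held 4 libraries, 1 per condition, all from MHCC-97H cells labelled WT and batch 1. For the library labelled PBS, the cells had received PBS for 24 h. For each of the other 3 they had received 2 μg of Migs for 24 h. The normo-Migs were released by this line under normoxia and the hypo-Migs under hypoxia. A CD147-knockout derivative of the line, also under hypoxia, gave the CD147KO-Migs. The Migs thus differ in their source cells and the oxygen these were kept in, and the cells sequenced in all 4 conditions are of the same line. The labels give oxygen levels and high or low glucose for the line as a whole and do not tie them to a library.

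Ribosomal proteins are made in step with each other, since an orphan subunit protein is degraded. Many of their mRNAs begin with a 5′ terminal oligopyrimidine (TOP) tract, a C followed by a run of C and T, through which mTOR signalling and the RNA-binding protein LARP1 control their translation and storage. Several ribosomal proteins also act outside the ribosome: RPL5 and RPL11 bind MDM2, a ubiquitin ligase, when ribosome assembly fails. In HCC, as in other tumors, ribosome production is usually high.

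Reads on genes numbered from 33882496 to 40285223 a library. The authors deposited the raw counts of reads per gene and an FPKM table, in which reads are divided by gene length and library size. With 1 library per condition, no difference could be set against the spread between cultures, so the tests below compare libraries and not conditions, and intervals cover counting error only. The library labelled PBS stood apart: 16.5% of the 19895 genes with at least 10 reads in a library were higher with normo-Migs than with PBS and 10.7% lower, with an adjusted p of 0.05 or less in edgeR's exact binomial test and a log2 fold change of 1 or more in size, the criteria used throughout. Between hypo-Migs and normo-Migs these shares were 2.56% and 2.34%. Reads of the mitochondrial chromosome took 2.69% with PBS and 5.00% to 5.16% with the Migs. Of 20 hepatocyte markers, 1 (CPS1) reached 1 FPKM with PBS and 5 with each kind of Migs, 13 were at 3 reads or fewer with PBS and 5 to 8 with the Migs, and ALB, AFP, APOB and TTR had 0 reads in all 4 libraries. The summed level of 8 fibroblast markers was 2.69 FPKM with PBS and 27.9 to 29.7 FPKM with the Migs, with 1 and 4 of the 8 at 1 FPKM or more and COL1A2 at 2 reads or fewer. The 8 endothelial markers summed to 0.578 to 0.913 FPKM, with 3 to 6 of them at 3 reads or fewer, and the 8 leukocyte markers to 0.31 to 2.02 FPKM, with 4 to 6 at 3 reads or fewer. The part of these differences in the results on ribosomal protein genes was not tested, so each comparison with PBS is followed by those among the 3 Mig libraries, which do without it.

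The 84 genes lie on 21 chromosomes, with 12 on chromosome 19. Between the start and end of 28 of them, on the same strand, lie 60 annotated small nucleolar RNAs, with 5 of these in RPL4. The genes have left many copies in the genome: 1144 pseudogenes in the tables are named for them, 91 of these for RPL23A and 74 for RPSA, whereas 7 members have none. Of the 50-base stretches of the coding sequences, a median of 49.1% per member also occurs in a transcript of another gene. In 8 members (RPL17, RPL21, RPL39, RPL41, RPS10, RPS26, RPS27 and RPS28) every such stretch does, in 4 (RPL38, RPL3L, RPL39L and RPS27L) none does, and 17 stay under 5%. Reads of members that share most of their sequence are uncertain, since the way reads with several positions were treated is not given in the sources used here.

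The RefSeq table of promoters on GRCh38.p14 matched 67 members by symbol. The transcribed strand was searched for a TOP-like tract, a C followed by at least 4 bases that are each C or T. It stood exactly at the annotated start in 43 of the 67 members (64.2%) and in 4.07% of all 35116 promoters in the table. Within 5 bases of the start it began in 51 members (76.1%) and in 21.1% of all promoters. The longest run of C and T within reach of the start had a median of 10 bases over the members. The following windows, from 10 bases before the annotated start to 20 bases from it, are shown for members on which the comparisons below turn, and capitals mark the longest run of a C and following C or T that begins within 5 bases of the start, however short.
RPS24 (chr10:78033853-78033882, plus strand): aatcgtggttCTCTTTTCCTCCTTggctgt
RPS14 (chr5:150449720-150449749, minus strand): ccctcccaCTCTCTCTTTCCggtgtggagt
RPLP0 (chr12:120201092-120201121, minus strand): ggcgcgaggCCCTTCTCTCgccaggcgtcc
RPS12 (chr6:132814559-132814588, plus strand): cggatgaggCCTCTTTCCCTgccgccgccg
RPL39 (chrX:119791611-119791640, minus strand): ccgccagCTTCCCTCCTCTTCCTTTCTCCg
RPL24 (chr3:101686699-101686728, minus strand): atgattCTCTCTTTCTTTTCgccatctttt
RPL4 (chr15:66504836-66504865, minus strand): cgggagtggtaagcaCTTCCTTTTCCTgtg
RPL6 (chr12:112411423-112411452, minus strand): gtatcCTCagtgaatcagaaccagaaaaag
RPL9 (chr4:39458903-39458932, minus strand): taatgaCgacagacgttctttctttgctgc
RPS29 (chr14:49598691-49598720, minus strand): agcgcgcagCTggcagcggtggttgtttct
RPS27L (chr15:63157458-63157487, minus strand): gatgcCgagcgcagatcgcttgcagcttgc
RPL26L1 (chr5:172958719-172958748, plus strand): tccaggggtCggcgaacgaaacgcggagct
The first 7 carry a run of 10 bases or more. RPL6, RPL9 and RPS29, which are among the members that differed most from PBS, hold no such run beginning within 5 bases of this annotated start, nor do the paralogs RPS27L and RPL26L1. Farther on, the RPL9 window holds another run of C and T, which the search did not cover. A single annotated start per member was used. Those of RPL6, RPS29 and RPS27L lie inside their genes, which on the minus strand begin at 112418838, 49599164 and 63158021. A lack of a tract thus holds only for the start used. A run of these letters is a description of the annotated end and not a measured site.

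All members but RPL10L had reads in every library. Together, members took 1401537 reads with PBS, 4.14% of the reads on genes (95% Wilson interval 4.13% to 4.14%). With normo-Migs they took 1815750 reads, 5.25% (5.25% to 5.26%). With hypo-Migs they took 2072026 reads, 5.14% (5.14% to 5.15%), and with CD147KO-Migs 1832151 reads, 5.23% (5.22% to 5.24%). The PBS library was the lowest and the 3 Mig libraries lay close together. In bulk RNA, fewer cells of a type and less RNA per cell cannot be told apart, and a share falls when other RNA rises. The small subunit took 36.97% of the member reads with PBS and 37.77% to 37.95% with the Migs.

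**Figure D1:**
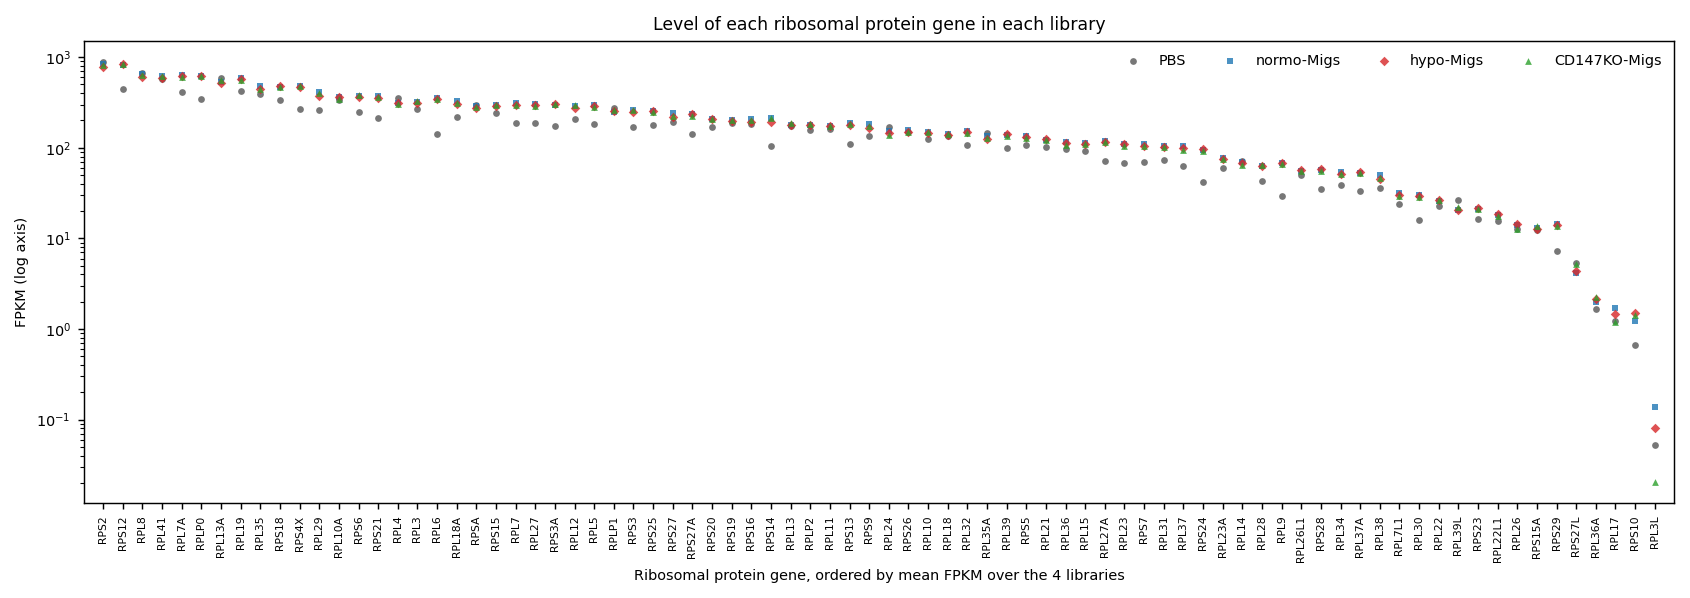
FPKM (log axis) of 80 ribosomal protein genes with reads, ordered along the x axis by their mean over the 4 libraries, with a symbol per library. Most genes lie between 10 and 1000 FPKM, the PBS symbols of many lie under the 3 Mig symbols, which overlap, and a tail of low genes ends with RPL3L. RPL10L, at 0 reads, is not drawn.

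On the FPKM scale, the member with the highest mean over the 4 libraries was RPS2, a small subunit protein near the mRNA entry site. It was at 890 FPKM with PBS and at 847, 779 and 816 with normo-Migs, hypo-Migs and CD147KO-Migs. RPS12 was at 443 FPKM with PBS and at 828, 845 and 833 with normo-Migs, hypo-Migs and CD147KO-Migs. RPL8 and RPL41 followed by mean level, at 603 to 668 and 567 to 627 FPKM. RPL7A, RPLP0, RPL13A, RPL19, RPL35 and RPS18 completed the 10 highest, with means from 437 to 567 FPKM. The order of members was the same in broad outline in all libraries: Spearman's rho of FPKM over the 84 members was 0.970 to 0.971 between PBS and a Mig library and 0.999 between Mig libraries, as a description of genes measured in the same libraries.

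FPKM divides by the gene length in the authors' table, which for these short mRNAs is 1.27 to 58.6 times the coding sequence (median 5.99). RPS29 had the largest such ratio and stood in rank 77 by FPKM, with 2484 reads for PBS and 4743 to 5612 for the Migs. Per kb of coding sequence, RPL41, the shortest member, led at a mean of 8746 CPM per coding kb, where CPM are reads scaled to a fixed total of reads on genes. RPL37, RPLP1 and RPLP0 came next at 2546, 2500 and 2333 CPM per coding kb. RPLP0, RPLP1 and RPLP2 together form the stalk that recruits elongation factors, and RPLP2 was lower, at 994 CPM per coding kb.

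The lower tail was made up mostly of members whose coding sequence lies inside another annotated gene. In GENCODE 29, 7 members share at least 50% of the coding sequence with exons of another gene on the same strand, among them RPL17 (100%, with RPL17-C18orf32), RPS10 (92.1%, with RPS10-NUDT3), RPL36A (78.2%, with RPL36A-HNRNPH2), RPL26 (71.0%, with AC135178.2), RPL22 (59.9%, with AL031847.2) and RPS15A (54.6%, with AC138811.2). These 7 had a median of 6.07 FPKM, against 177 FPKM for the other 76 members with reads, and 6 of them were among the 10 lowest. Their partner genes, several of which are readthrough genes that join the member to its neighbor, had 0 reads in all 4 libraries. RPS10, a small subunit protein, had 55, 100, 144 and 118 reads with PBS, normo-Migs, hypo-Migs and CD147KO-Migs. RPL17, near the peptide exit tunnel, had 105, 146, 145 and 104 reads in the same order. These are subunits that every ribosome needs, and the reads counted for them were a small part of those on other members. What the counting did with reads that lie in a member and its partner was not tested.

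The other members among the 10 lowest were RPS29, RPS27L, RPL3L and RPL10L. RPL3L, a paralog used in striated muscle, had 5, 13, 9 and 2 reads with PBS, normo-Migs, hypo-Migs and CD147KO-Migs. RPL10L, a testis paralog of RPL10, had 0 reads in all 4, which allows up to 3 reads, 0.0745 to 0.0885 CPM. Both are near or at the detection floor in this liver line.

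Compared with PBS, most members were modestly higher with each kind of Migs. The median log2 fold change over the 83 members tested was 0.42, 0.35 and 0.32 with normo-Migs, hypo-Migs and CD147KO-Migs, beside 0.03, 0.04 and 0.03 over all genes tested. The 3 comparisons share the PBS library, so their agreement carries no weight of its own. With normo-Migs, 57 members were at least 0.25 higher on the log2 scale and 3 at least 0.25 lower, beside 39.4% and 35.2% of all genes. With hypo-Migs the counts were 51 and 3, beside 39.9% and 35%, and with CD147KO-Migs 50 and 3, beside 39.8% and 35.5%. In all 3 Mig libraries at once, 47 members lay at least 0.25 above PBS and 1 at least 0.25 below it. No share of all genes was taken for the 3 at once, so whether these counts are unusual cannot be judged. Small subunit members had medians of 0.46, 0.46 and 0.42 with normo-Migs, hypo-Migs and CD147KO-Migs, and large subunit members 0.37, 0.34 and 0.30.

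Few of these differences reached 2-fold. Past the criteria were 4 members higher with normo-Migs and 0 lower, beside the 16.5% and 10.7% given above for all genes. With hypo-Migs 4 were higher and 0 lower, beside 17.4% and 10.9%. With CD147KO-Migs 5 were higher and 0 lower, beside 16.6% and 10.9%. These counts are 4.82% to 6.02% of the members tested, and their quartiles spanned 0.51 to 0.54 on the log2 scale where those of all genes spanned 1.13 to 1.16. All genes include many with few reads, and among the 6022 genes with at least 1000 reads in each library the background was lower. With normo-Migs, hypo-Migs and CD147KO-Migs, 5.7%, 6.19% and 6.19% of these genes and 4, 3 and 4 of the 77 members of that depth differed from PBS by at least 1 on the log2 scale, and the quartiles spanned 0.63 to 0.65 for the genes and 0.50 to 0.54 for the members.

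**Figure D2:**
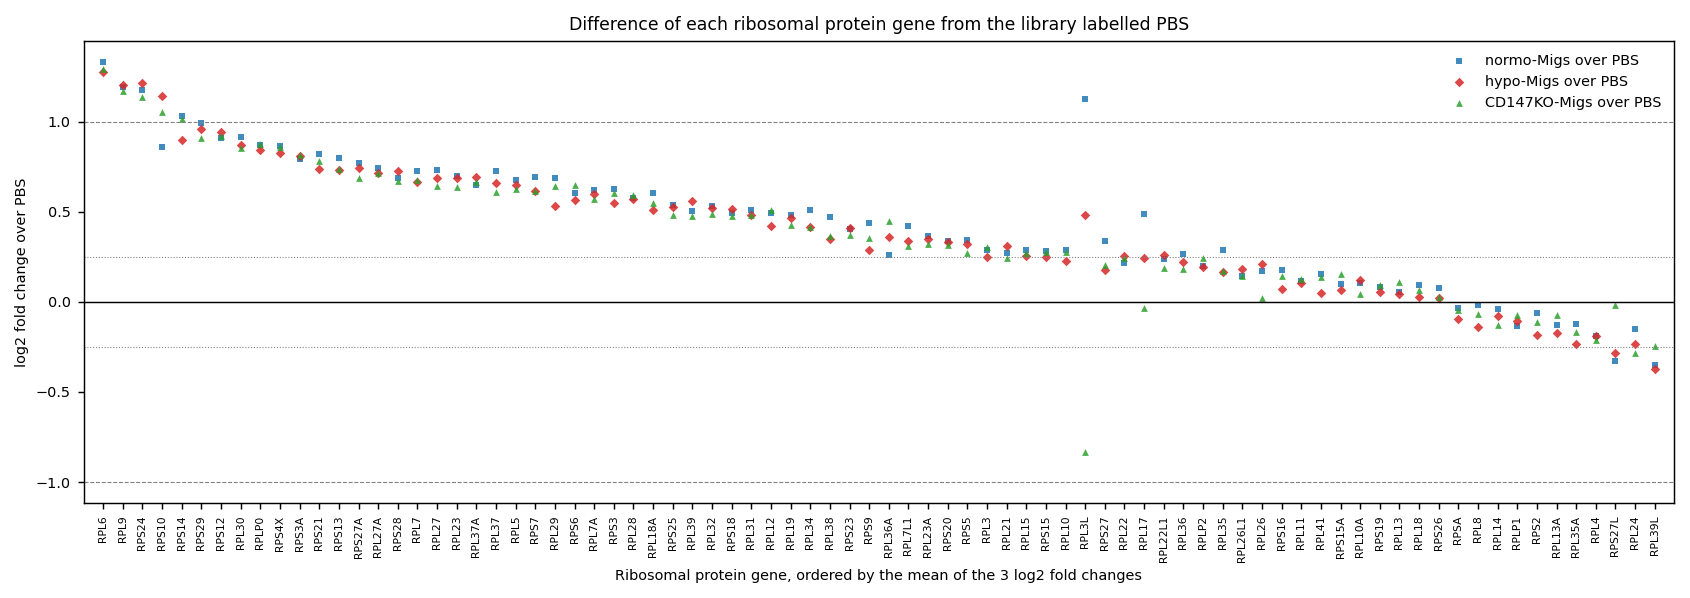
Log2 fold change over PBS of 80 of the members tested, ordered by the mean of the 3 values, with a symbol per Mig library, dotted lines at 0.25 and dashed lines at 1 in both directions. The values fall smoothly from RPL6 to RPL39L and the 3 symbols of a gene mostly overlap. They lie farthest apart in RPL3L, with 2 to 13 reads, and are also apart in others such as RPL17, RPS27L and RPS10.

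RPL6, a large subunit protein, differed most from PBS. It had 21854 reads with PBS, against 54328, 61437 and 54350 with normo-Migs, hypo-Migs and CD147KO-Migs. The log2 fold change over PBS was 1.33 (95% interval 1.31 to 1.36), 1.27 and 1.29 in the same order, and the reads of the 3 Mig libraries scaled to depth lay within 0.06 of each other. RPS24, a small subunit protein mutated in some patients with Diamond-Blackfan anemia, had 11464, 25550, 30927 and 25553 reads, with log2 fold changes of 1.17 (1.14 to 1.21), 1.21 and 1.14. RPS14, whose loss underlies the anemia of the 5q- syndrome, had 18531, 37342, 40128 and 38038 reads and passed the criteria with normo-Migs (1.03) and CD147KO-Migs (1.02) but not with hypo-Migs (0.90). RPS29 came close, at 0.99, 0.96 and 0.91.

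RPL9, of the large subunit, passed the criteria in all 3 comparisons, and its value changed once reads on a pseudogene were added. It had 5143, 11604, 13795 and 11756 reads with PBS, normo-Migs, hypo-Migs and CD147KO-Migs, a log2 fold change of 1.19 (1.15 to 1.24) with normo-Migs. Its pseudogene RPL9P9 had 7588, 6430, 7323 and 6399 reads, more than RPL9 itself with PBS and fewer with the Migs. Pseudogenes took 59.8% of the reads of RPL9 and its copies with PBS and 35.1% to 36.0% with the Migs, and with their reads added the log2 fold change of RPL9 was 0.52, 0.52 and 0.49 with normo-Migs, hypo-Migs and CD147KO-Migs, short of the criteria. RPS10 passed with hypo-Migs (1.14) and CD147KO-Migs (1.05) on 55 to 144 reads, and both calls were lost with pseudogene reads added, where its log2 fold change over PBS was -0.68, -0.65 and -0.58 with normo-Migs, hypo-Migs and CD147KO-Migs. RPL6, in contrast, kept a log2 fold change of 1.33 with pseudogene reads added.

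Members at key sites of the ribosome or with a known second role did not move as a block. RPLP0 had 47552 reads with PBS and 85936, 99049 and 88481 with normo-Migs, hypo-Migs and CD147KO-Migs, 0.87, 0.84 and 0.87 above PBS on the log2 scale. Its stalk partners differed from it: RPLP2 was 0.20, 0.19 and 0.25 above PBS and RPLP1 0.13, 0.11 and 0.07 below it, the latter on 28031 to 33579 reads. RPS27A, made as a fusion with ubiquitin, was 0.77, 0.74 and 0.69 above PBS. RPS6, the substrate of S6 kinase, was 0.61, 0.56 and 0.65 above, and RPS3, at the mRNA entry site, 0.63, 0.55 and 0.60 above. RPL10, which is added last to the large subunit, was 0.29, 0.22 and 0.28 above. RPL5 and RPL11, which enter the ribosome together with the 5S RNA, differed: RPL5 was 0.68, 0.65 and 0.63 above PBS and RPL11 0.11, 0.10 and 0.13. RPSA, also known as the laminin receptor, and RPL13A, released from the ribosome in interferon-treated myeloid cells, lay slightly under PBS, at -0.03, -0.09 and -0.05 and at -0.13, -0.17 and -0.07.

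Among the members farthest below PBS with normo-Migs were RPL39L (-0.35), RPS27L (-0.33), RPL4 and RPL24. RPL4, at the wall of the exit tunnel, had 69117, 59756, 70425 and 60565 reads with PBS, normo-Migs, hypo-Migs and CD147KO-Migs and differed by -0.19 (-0.21 to -0.18), -0.19 and -0.21. RPL24, at a bridge between the subunits, differed by -0.15, -0.23 and -0.28. None of them reached the fold of the criteria. RPL24, below PBS, and RPS24, above it, both carry a TOP-like tract at the annotated start, and RPL4, below PBS, only near it. Over the members with a promoter entry and a test, the mean of the 3 log2 fold changes had a median of 0.39 in the 43 with a tract at the start and 0.28 in the 23 without. Whether the tract has a part in these differences was not tested.

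Other properties of the genes went at most weakly with the difference from PBS, GC content the most of those listed here. Over the 83 members, Spearman's rho of the mean log2 fold change was -0.20 with the GC content of the coding sequence, 0.01 with coding length, 0.11 with the share of 50-base stretches found elsewhere and -0.0017 with mean FPKM, as descriptions of genes that share the same libraries. The 28 hosts of small nucleolar RNAs had a median of 0.41 and the other 55 members 0.36. Member genes with a coding GC content under 50% had a median of 0.42 (38 genes) and those at 50% or more 0.27 (45 genes).

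Among the 3 Mig libraries, members were close to equal. The median log2 fold change was -0.03 for hypo-Migs over normo-Migs, -0.003 for hypo-Migs over CD147KO-Migs and 0.03 for normo-Migs over CD147KO-Migs, and the quartiles of the members spanned 0.07, 0.09 and 0.06 where those of all genes spanned 0.30, 0.30 and 0.31. Past the criteria were 0 members in either direction for hypo-Migs over normo-Migs, beside 2.56% and 2.34% of all genes. For hypo-Migs over CD147KO-Migs there were also 0 in either direction, beside 2.57% and 2.47%. For normo-Migs over CD147KO-Migs there were 1 higher and 0 lower, beside 2.36% and 2.55%. The 1 was RPL3L with 13 and 2 reads (log2 fold change 1.96, interval 0.60 to 5.93, adjusted p = 0.02 in edgeR's exact binomial test), which is a difference of a few reads.

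The smaller threshold gave the same picture. For hypo-Migs over normo-Migs, 1 member was at least 0.25 higher and 1 at least 0.25 lower, beside 19.2% and 16.1% of all genes. For hypo-Migs over CD147KO-Migs, 2 were higher and 1 lower, beside 18.1% and 17.4%, and for normo-Migs over CD147KO-Migs 2 were higher and 1 lower, beside 16.9% and 19.7%. The 77 members with at least 1000 reads in each library were again set beside the 6022 genes of that depth. The quartiles of these members spanned 0.07, 0.09 and 0.06 and those of the genes 0.13 in each pair. In 76 of the 77 no pair of Mig libraries differed by 0.25, and in 60 none differed by 0.1. Few of the 6022 genes passed 0.25 either. For hypo-Migs over normo-Migs, 0.731% were higher and 1.51% lower. The shares were 0.814% and 1.11% for hypo-Migs over CD147KO-Migs, and 1.36% and 1.38% for normo-Migs over CD147KO-Migs. At this depth, staying within 0.25 is thus not particular to the members, and no share of all genes was taken at 0.1.

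**Figure D3:**
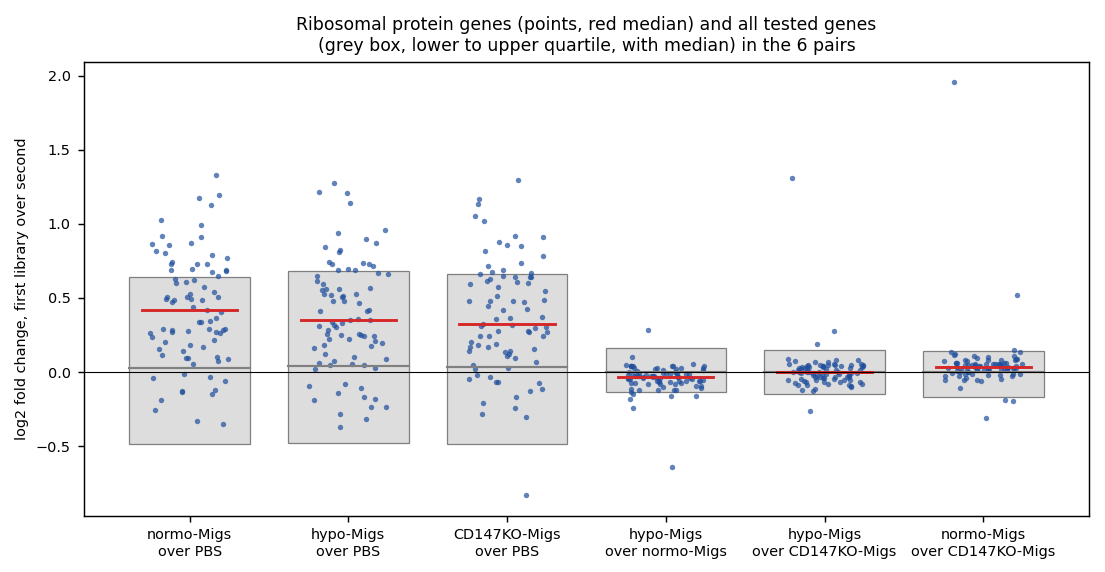
Log2 fold change (first library over second) of the 83 members in the 6 pairs of libraries, as points with the median in red, beside grey boxes from the lower to the upper quartile of all 19895 genes tested. Member medians lie at 0.32 to 0.42 in the pairs with PBS and within 0.04 of 0 in the pairs of Mig libraries, where the single points above 1 are RPL3L.

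Of the members with at least 1000 reads in each library, the 1 that broke this closeness was RPS27L. RPS27L is a paralog of RPS27 and, like it, belongs to the small subunit. Its reads numbered 1675 with PBS and 1316, 1599 and 1677 with normo-Migs, hypo-Migs and CD147KO-Migs. CD147KO-Migs were thus the highest of the 3 Mig libraries after scaling: the log2 fold change was -0.27 (-0.37 to -0.17, adjusted p = 5.01e-06 in edgeR's exact binomial test) for hypo-Migs over CD147KO-Migs and -0.31 (-0.42 to -0.21, adjusted p = 1.78e-07) for normo-Migs over CD147KO-Migs. With an assumed coefficient of variation of 0.1 between libraries, the adjusted p was 1 and 0.855. Hypo-Migs over normo-Migs differed by 0.04 (-0.06 to 0.15).

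Of members with at least 100 reads in each library, RPL17 lay farthest from 0 in a pair of Mig libraries. It differed by 0.52 for normo-Migs over CD147KO-Migs, on only 146 and 104 reads. The other values given below are smaller. Among the lowest for hypo-Migs over normo-Migs, of members with at least 100 reads in each library, were RPL17 (-0.24, on 145 and 146 reads), RPS27 (-0.16), RPL29 (-0.16) and RPS9 (-0.15). RPL36A (0.10), RPL39 (0.05), RPS27L (0.04), RPS28 (0.04) and RPL37A (0.04) were the highest. For hypo-Migs over CD147KO-Migs, RPL39L (-0.13), RPS14 (-0.12), RPL29 (-0.11) and RPL13A (-0.10) followed RPS27L. RPL17 (0.28, interval -0.09 to 0.66), RPL26 (0.19), RPL39 (0.08), RPS24 (0.08) and RPL10A (0.07) were the highest. RPL29 had 30822 reads with hypo-Migs and 29206 with normo-Migs, so that its interval was narrow (-0.18 to -0.14), but such an interval holds no spread between cultures.

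Paralogs of ribosomal proteins stand in for their parents in some tissues or stages, and their share of the reads of a pair needs no scaling between libraries. RPL39L, a testis-enriched paralog, had 971 reads with PBS and 752, 873 and 832 with normo-Migs, hypo-Migs and CD147KO-Migs. It took 11.8% (95% Wilson interval 11.1% to 12.5%) of the reads of RPL39L and RPL39 with PBS and 6.88%, 6.56% and 7.51% with the 3 kinds of Migs, while RPL39 was 0.47 to 0.56 above PBS on the log2 scale. RPL39, whose coding sequence shares all its 50-base stretches with other genes, is the less certain of the pair. RPS27L took 19.4% (18.6% to 20.2%) of the reads of RPS27L and RPS27 with PBS. This share was 13.1% (12.5% to 13.8%) with normo-Migs, 14.9% (14.2% to 15.5%) for hypo-Migs and 17.1% (16.4% to 17.8%) for CD147KO-Migs. None of these intervals overlapped, but they hold no spread between cultures, so they do not separate the conditions. RPS27, like RPL39, shares all its 50-base stretches with other genes and is the less certain of its pair.

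RPL7L1, which works in assembly of the large subunit, took 25.5% of the reads of RPL7L1 and RPL7 with PBS and 21.7%, 21.5% and 21.0% with normo-Migs, hypo-Migs and CD147KO-Migs. RPL22L1, which balances RPL22, stayed at 24.6% to 25.6% in the 4 libraries. The size of both shares is uncertain. RPL7 shares 99.7% of its 50-base stretches with other genes and RPL22 96.7%, and 59.9% of the RPL22 coding sequence lies in exons of another gene. RPL26L1 took 64.4% to 66.8% of the reads of RPL26L1 and RPL26, and it is the only paralog of the 7 with more reads than its parent. Its parent RPL26 is among the members that lie inside another gene, and with 1094 to 1473 reads it was far below most members, so this share was not read as a switch between the pair. RPL3L made up 0.0036% to 0.0245% of its pair and RPL10L none.

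**Figure D4:**
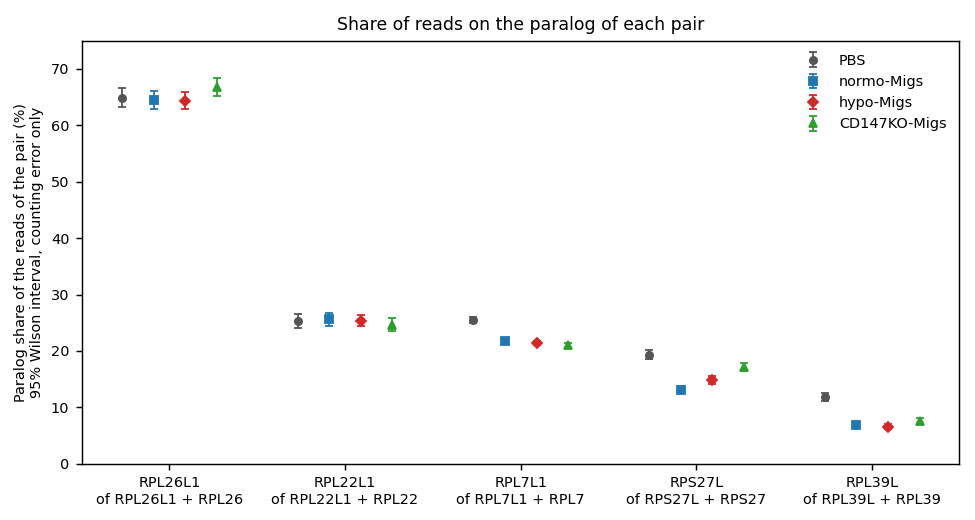
Share of the paralog in the reads of a paralog and its parent (percent, with 95% Wilson intervals for counting error) in each of the 4 libraries. RPL26L1 is the only one above 50%, RPL22L1 is level across libraries, and RPL39L, RPS27L and RPL7L1 are highest with PBS.

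Genes that work with the ribosomal proteins were followed through lists chosen with earlier results on these data known. Of the 23 translation factors and other genes known for TOP mRNAs, 22 were tested and 0 passed the criteria in any pair. In the pairs with PBS, 16.5% to 17.4% of all genes were higher past the criteria and 10.7% to 10.9% lower. The median log2 fold change of the 22 over PBS was 0.25, 0.29 and 0.23 with normo-Migs, hypo-Migs and CD147KO-Migs. At least 0.25 higher were 11, 12 and 11 of them, beside 39.4%, 39.9% and 39.8% of all genes. In each comparison 2 were at least 0.25 lower, beside 35% to 35.5% of all genes. The elongation factor EEF1A1, the most counted gene of the list, had 184270, 319015, 397507 and 343897 reads, 0.81, 0.89 and 0.88 above PBS, whereas the initiation factor subunit EIF3D was 0.61, 0.66 and 0.71 below it. EEF1G was the untested one, with 0 reads in all 4 libraries. FAU and RPL36AL are further cytosolic ribosomal protein genes whose symbols fall outside the rule. FAU was 0.25, 0.20 and 0.14 above PBS with normo-Migs, hypo-Migs and CD147KO-Migs, and RPL36AL 0.91, 0.78 and 0.72 above it.

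Ribosome assembly factors did not follow the ribosomal proteins. Their 57 genes had medians of -0.07, -0.13 and -0.15 over PBS, and 1, HEATR1, a factor of early small subunit assembly, passed the criteria in all 3 comparisons, with 11225 reads for PBS and 5108 to 6482 for the Migs. Of 11 chaperones and importers of ribosomal proteins 0 passed, with medians of 0.24, 0.22 and 0.20. For these counts and the next, the shares of all genes past the criteria were 16.5% to 17.4% higher and 10.7% to 10.9% lower. The 78 mitochondrial ribosomal protein genes, a list added after the first results, had medians of 0.03, -0.05 and -0.04 over PBS, with 2, 3 and 1 higher and 1, 1 and 2 lower past the criteria. MRPL34 was the highest with normo-Migs, at 1.07, and MRPS24 the lowest, at -1.15 on 44 and 101 reads.

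Of 23 genes of growth signalling upstream of ribosomal proteins, 2 were higher past the criteria in each comparison with PBS, beside 16.5% to 17.4% of all genes. DEPTOR, an inhibitor of mTOR, had 51 reads with PBS and 173, 222 and 247 with normo-Migs, hypo-Migs and CD147KO-Migs. MYCN had 0 reads with PBS and 39 to 63 with the Migs. MTOR and LARP1 were 0.41 and 0.37 above PBS with normo-Migs, and MYC, which drives transcription of ribosomal protein genes, was 0.19 above. Among the hosts of small nucleolar RNAs that encode no ribosomal protein, SNHG5 (545 reads with PBS and 2302 to 2748 with the Migs) and EPB41L4A-AS1 (304 and 696 to 863) were the 2 of 15 past the criteria, both higher than PBS in all 3 comparisons. These 2 of 15 also stand beside the 16.5% to 17.4% of all genes. No gene of these 6 lists passed the criteria in a pair of Mig libraries, where 2.34% to 2.57% of all genes did in each direction.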

How the data were processed

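RNA from MHCC-97H cells was sequenced with 1 library per condition. The authors deposited raw counts of reads per gene, without normalization, and FPKM values, which the authors had divided by the length of the gene and the size of the library. The submitters' notes name CASAVA 1.8, fastp, HISAT2 2.0.5, featureCounts 1.5.0-p3 and hg38, without their settings. The supplementary methods describe poly-T beads and random hexamers, the labels a SMARTer kit, and strand handling is not given in the sources used here. Of 58735 genes, 58724 have the coordinates of GENCODE 29 (GRCh38), from which coding sequences, overlaps and shared 50-base stretches were taken; windows at gene starts came from RefSeq (GRCh38.p14).

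TMM scaling (factors 0.986 to 1.02) used the 19895 genes that reached 10 reads in any library, and a prior count of 2 went into log2 fold changes (R 4.3.3, edgeR 4.0.16, DESeq2 1.42.0, Python 3.11.15). Pairs of libraries were tested with the two-sided exact binomial test of edgeR and Benjamini-Hochberg adjustment over all genes tested, since 1 library per condition leaves quasi-likelihood tests and DESeq2 no residual degrees of freedom. Fold intervals are exact 95% intervals for counting error. The procedure was tested on counts simulated with counting error only and no spread between cultures, so this test does not cover such spread. Of 200 changed genes 200 were recovered, with 5 false calls. Groups came from the labels. Alternatives concerned scaling, filters, the prior count, pseudogene reads, the FPKM table, gene length and spread; removing a GC and transcript length trend was chosen after seeing the data.

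The members, lists and thresholds were chosen with earlier results of these data known. Named were the 10 members highest and lowest by mean FPKM, paralogs and their parents, members with known further roles, the 5 largest differences in each direction in normo-Migs over PBS, hypo-Migs over normo-Migs and hypo-Migs over CD147KO-Migs among members with at least 100 reads in each library, members with most pseudogenes or pseudogene reads, and up to 4 genes a list past the criteria; further list genes were named after their values were seen. Results on a few genes are not reported here.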

Additional observations from a re-analysis of the deposited data

Results flagged for a closer look

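Reads also fell on the pseudogenes named for ribosomal protein genes, which the comparisons did not use. These 1144 pseudogenes took 66309 reads with PBS and 77430, 90291 and 78532 with normo-Migs, hypo-Migs and CD147KO-Migs, 4.09% to 4.52% of the reads on members and pseudogenes together. There are no control samples for such reads. The reads were uneven: 710 pseudogenes had 0 reads in all 4 libraries, 141 had at least 10 in a library, 21 at least 1000, and 5 of them (RPS2P5, RPS28P7, RPL9P9, RPL18AP3 and RPL6P27) held 46.4%.

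RPS2P5, a copy of RPS2, had 13933, 12418, 13503 and 11977 reads with PBS, normo-Migs, hypo-Migs and CD147KO-Migs. RPS28P7 had 5257, 9104, 10324 and 9359 reads, more than RPS28 itself in each library (2577, 4091, 4967 and 4167). All 50-base stretches of RPS28 occur in other genes, so reads of the pair cannot be assigned with certainty. Whether these reads come from the pseudogenes or from their parents was not tested.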

How the results depend on the processing

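No paired analysis was possible because each condition has 1 library, and for the same reason no replicate could be left out. The median for hypo-Migs over CD147KO-Migs, -0.003, lay on the other side of 0 with no filter (0.0035) and with the gene length trend removed (0.0058). The other 5 medians kept their sign. The median with normo-Migs over PBS was 0.37 with library size scaling, 0.37 with pseudogene reads added and 0.35 on log2(FPKM + 1), and that with hypo-Migs over PBS 0.32, 0.32 (FPKM) and 0.32 (GC and length trend removed, chosen after seeing the data). With DESeq2 over the 4 libraries as if replicates of 1 group, 0 members passed in the 3 pairs with PBS and in normo-Migs over CD147KO-Migs, as did 0 of all genes in each pair; 0 members had an unadjusted p under 0.05, and edgeR with an assumed coefficient of variation of 0.1 called 4, 4 and 5 against PBS. With pseudogene reads added, 2 members passed with hypo-Migs and 3 with CD147KO-Migs over PBS, and on FPKM 3 with CD147KO-Migs. RPL3L in normo-Migs over CD147KO-Migs was lost (0 members) with 10 reads required in every library, with the coefficient of variation of 0.1 (1 member at an unadjusted p under 0.05), and on FPKM. Members past 0.25 numbered 1 with 10 reads in every library, 1 with pseudogene reads added and 0 on FPKM for hypo-Migs over normo-Migs, and 0 on FPKM for hypo-Migs over CD147KO-Migs. The share of reads on members in PBS, normo-Migs, hypo-Migs and CD147KO-Migs was 4.33%, 5.48%, 5.37% and 5.45% with pseudogene reads added, 4.22%, 5.42%, 5.31% and 5.40% of protein-coding reads, and 5.73%, 6.61%, 6.48% and 6.58% of summed FPKM. PBS was the lowest in each.

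Depth limits few members: 77 of 84 had at least 1000 reads in each library. The limit is the single library per condition, so that the treatment and any other difference between the libraries cannot be told apart.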
